A study of Danio rerio with 28 samples.

Results

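The genes described here are the zebrafish znf genes that lie off chromosome 4: every gene of the deposited count table whose symbol is znf followed by a digit and whose first listed chromosome is not 4. The rule took 170 of 32520 genes, on 22 chromosomes, and another 172 znf genes lie on chromosome 4. Expression values played no part in the rule. Most znf genes encode proteins with C2H2 zinc fingers, small folds held by a zinc ion that read DNA, RNA or other proteins. Many such proteins are transcription factors that recruit repressors or activators, while others act on RNA, on the ribosome or at the mitotic spindle. In vertebrates the family has grown by local duplication, and young copies often sit side by side in clusters.

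RNA made after fertilisation was labelled in whole embryos during zygotic genome activation, when transcription from the embryo's own genome begins. All embryos were injected with s4UTP, a sulfur-carrying nucleotide, and RNA that had taken it up was biotinylated, enriched and treated with iodoacetamide (IAA), which alkylates the sulfur. The mutant embryos were mir430-/- and had also been given miR430 as a rescue, and the wild type embryos had not, so effects of the deletion, of the injection and of the fish line cannot be told apart wherever genotypes are compared. Embryos without chorions were grown at 28 degrees and sampled at 256c, 1024c, Oblong and Sphere, with 3 IAA libraries of each genotype at each stage, 24 libraries in 8 groups. Per the design text the mutant asks what loss of the major transcription bodies does to genome activation. The replicates are described as biological, without a word on clutches, and the p-values therefore reflect only the spread among these libraries, which may be technical. In whole embryos, fewer cells of a type and less RNA per cell cannot be told apart.

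The libraries held 4960211 to 13803137 counts, most of them mitochondrial in all but 2, and 160889 to 4118874 counts of nuclear genes. The 55 mir430 genes together had 61, 73, 29 and 9 counts in the mutant at 256c, 1024c, Oblong and Sphere, against 42970, 289853, 167905 and 320129 in wild type. Replicate 1 stood apart in several groups. At 256c the chromosome 4 znf genes took 0.321% of nuclear counts in mutant replicate 1 and 1.77% and 2.56% in the others, against 0.14% to 0.219% in wild type. At Sphere they took 0.754% in wild type replicate 1 and 3.32% and 3.6% in the others, and nuclear genes made up 12.9% of all counts in that replicate against 40.1% and 62.6%. Replicate 1 was also lowest by this measure in the mutant at 1024c (0.709%, against 2.56% and 3.59%) and in wild type at 1024c (0.966%, against 1.49% and 2.25%) and Oblong (0.546%, against 3.12% and 2.69%). Results below are given with and without these libraries where a call or a count turns on them.

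The members were found in clusters and as single genes. Chromosome 22 held 48 of them, 46 with a symbol number of 900 or more, and 46 of the 48 had another member within 100000 bases. Chromosome 3 followed with 18 and chromosome 16 with 10. In all, 71 members had a number of 900 or more and 99 a lower one. The high-numbered members were short, with a median exonic length of 1209 bases, and 59 of the 71 had a neighbouring member within 100000 bases, against 3345 bases and 10 of 99 for the low-numbered ones. Shared symbols occur among 24 members, so an Ensembl identifier is given where one is needed. Exons of 13 members overlapped those of another gene on the same strand and exons of 14 overlapped a gene on the opposite strand. Near-identical copies and overlapping genes make the division of reads among such members uncertain. For overlapping genes the strand setting used in counting matters too. The deposited counts are labelled as of proper orientation, and the sources used here state no strand setting beyond this label.

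The members together took close to 1% of nuclear counts at each stage. Their share of nuclear counts was 0.856% ± 0.193 in the mutant and 0.858% ± 0.0926 in wild type at 256c, and 0.85% ± 0.138 in the mutant and 0.823% ± 0.21 in wild type at 1024c (SD, n = 3). At Oblong it was 0.937% ± 0.0905 in the mutant and 1.1% ± 0.187 in wild type, and at Sphere 1.08% ± 0.1 in the mutant and 1.21% ± 0.208 in wild type (SD, n = 3). The libraries of the genotypes overlapped at every stage. With the mir430 genes left out of the nuclear counts, the mean was higher in wild type at the early stages too, at 0.856% ± 0.193 in the mutant and 0.935% ± 0.0601 in wild type at 256c, and 0.85% ± 0.138 in the mutant and 0.953% ± 0.127 in wild type at 1024c (SD, n = 3). One gene carried much of the total. The gene znf1004 (ENSDARG00000097098, chr3:61522759-61533097, plus strand, GRCz11) held 71012 counts over the 24 libraries and had the highest level per length, with a mean of 103 RPKM. It overlaps zgc:113295 on the same strand. Another member has the same symbol, and znf1004 below always means ENSDARG00000097098. It made up 9.43% ± 7.91 of the members' counts in the mutant at 256c and 0.82% ± 0.585 in wild type, and 15.2% ± 3.51 in the mutant at Sphere and 25.2% ± 8.98 in wild type (SD, n = 3). At 256c mutant replicate 1, at 0.989%, lay within the wild type range of 0.165% to 1.29%. Without znf1004 the members' share at Sphere was 0.912% in the mutant and 0.892% in wild type.

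**Figure D1:**
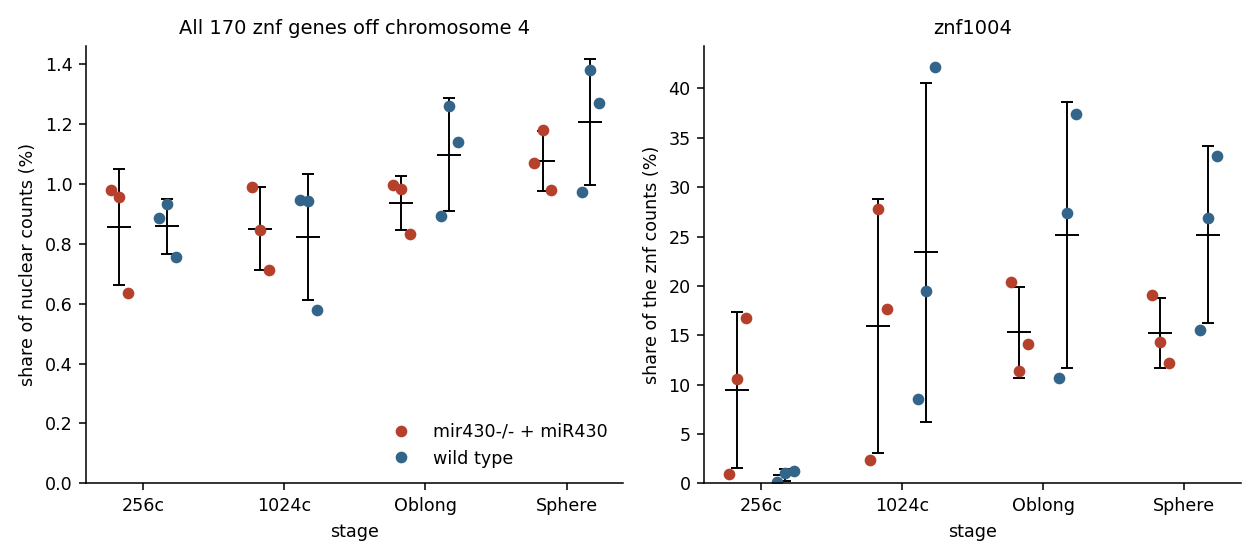
Left, share of nuclear counts (percent) taken by all 170 znf genes off chromosome 4; right, share of those counts (percent) taken by znf1004. Points are the 3 libraries of each group by stage, bars the mean and SD. The genotypes overlap at every stage on the left. On the right znf1004 held a mean of 9.43% of the members' counts in the mutant at 256c and 0.82% in wild type. Mutant 256c replicate 1, at 0.989%, lay within the wild type range of 0.165% to 1.29%.

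The next members by level per length were far below znf1004. The chromosome 22 gene znf1153 (ENSDARG00000071790) averaged 9.9 RPKM over the 24 libraries, znf1159 of the same chromosome 8.37, znf710a 8.21 and znf646 6.91. By mean CPM, counts scaled to a common TMM-adjusted library size, 107 of the 151 tested members were highest at Sphere in the mutant and 110 in wild type, and 35 were highest at 256c in the mutant and 34 in wild type. The stage of the highest mean was not counted over all genes, so whether the members differ from other genes in this was not tested. The other 19 members did not pass the filter on low counts: the fullest of them had 96 counts over all libraries, and znf423 had 0. A gene passes that filter on 3 libraries with enough counts, which can be those of its higher group, so the counts below describe the tested members and not all 170.

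At 256c, the earliest stage sampled, a few members differed between the genotypes. Of the 151 tested, 9 were called higher in the mutant and 4 lower (edgeR quasi-likelihood test, adjusted p under 0.05 over all 14732 tested genes). These are 5.96% and 2.65% of the members, against 6.6% and 2.87% of all genes, so the members were called about as often as any gene. The median log2 fold change was 0.52 over the members and 0.24 over all tested genes. Of the 167 tested znf genes on chromosome 4, 52 were higher and 0 lower, with a median of 3.50. Members with a high number had a median of 0.93 with 5 higher and 1 lower, and those with a low number 0.09 with 4 higher and 3 lower.

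The double-stranded RNA binding protein gene znf346, whose mammalian relative is also called JAZ, was higher in the mutant at 256c and at 1024c. The gene lies at chr21:37090585-37111264 on the plus strand (ENSDARG00000060695). At 256c it had 49, 21.3 and 28.8 CPM in the mutant and 3.42, 1.63 and 0.775 CPM in wild type. Every mutant library was above every wild type library. The log2 fold change was 4.03 (SE 0.71, edgeR adjusted p = 0.00127), and the call held in each of the 13 alternative settings. At 1024c the mutant libraries had 50.9, 16.8 and 35.2 CPM and the wild type ones 5.36, 2.95 and 4.59, again without overlap, a log2 fold change of 2.99 (SE 0.66, edgeR adjusted p = 0.00927). This call was lost without wild type 1024c replicate 2 (edgeR adjusted p = 0.0767) and with only the 1024c libraries fitted (edgeR adjusted p = 0.0594). At Oblong the mutant averaged 23.3 ± 7.77 CPM and wild type 7.41 ± 1.27 (SD, n = 3; log2 fold change 1.65, edgeR adjusted p = 0.203). By Sphere the genotypes overlapped, at 14 ± 8.57 CPM in the mutant and 12.1 ± 5.24 in wild type (SD, n = 3). In the authors' deposited table znf346 is marked higher at 256c and at 1024c, with log2 fold changes of 3.73 and 2.52.

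The chromatin reader partner gene znf532, whose human relative works in a complex with ZMYND8, was the other member higher at both early stages. It had 0.925, 2.53 and 0.543 CPM in the mutant at 256c and 2.09, 0.788 and 0.696 at 1024c, and 0 counts in all 6 wild type libraries of these stages. Against 3 counts over the wild type group, it was at least 4.93-fold higher at 256c (edgeR adjusted p = 0.0115) and at least 7.68-fold higher at 1024c (0.00691). The 256c call was lost without wild type 256c replicate 1 (edgeR adjusted p = 0.0627) or mutant replicate 2 (0.0529). At Sphere the mutant had 0.841, 0.468 and 0.417 CPM and wild type 0.318, 0.645 and 0.588, with overlap.

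Both copies of znf143, whose human relative activates small nuclear RNA and housekeeping genes, were called at 256c, in opposite directions. The gene znf143b (ENSDARG00000041581, chr18:16924865-16937109) had 4.39, 6.83 and 14.3 CPM in the mutant at 256c, and 2.93, 1.63 and 1.55 CPM in wild type. The gene znf143a (ENSDARG00000012887, chr7:67220374-67252108) had 0.462, 0.633 and 1.45 CPM in the mutant, and 4.89, 4.89 and 2.71 CPM in wild type. Neither copy's libraries overlapped between the genotypes. The log2 fold change was 2.03 for znf143b (SE 0.61, edgeR adjusted p = 0.034) and -2.29 for znf143a (SE 0.61, 0.018). At 1024c znf143a was still lower, at 0.748, 1.18 and 1.53 CPM in the mutant and 5.08, 4.07 and 5.03 CPM in wild type, a log2 fold change of -2.02 (SE 0.58, edgeR adjusted p = 0.049). The 1024c call of znf143a was lost in 11 of 13 alternative settings, with every one of these values below 0, and the 256c calls were lost in 7 settings for znf143a and 6 for znf143b. Leaving out mutant 256c replicate 1 or 2 or wild type replicate 1 or 2 lost the first (edgeR adjusted p from 0.0662 to 0.083), and leaving out mutant replicate 3 or any wild type replicate lost the second (0.0692 to 0.224). At Sphere both copies overlapped between the genotypes.

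Members numbered 900 and above made up the rest of the strongest rises, and here mutant replicate 1 lay near wild type. The chromosome 3 gene znf1134 (ENSDARG00000097842, chr3:61349155-61354239) had 1.16, 12 and 30.4 CPM in the mutant at 256c and 0.489, 0.326 and 0.388 CPM in wild type, a log2 fold change of 5.12 (SE 1.14, edgeR adjusted p = 0.00601). Its neighbour znf1028 had 1.16, 9.11 and 27.1 CPM in the mutant and 1.22, 0.326 and 0.388 in wild type (log2 fold change 4.17, SE 1.05, edgeR adjusted p = 0.0129), and its exons overlap those of znf1143. Farther along chromosome 3, znf1004 had 5.78, 73.5 and 121 CPM in the mutant and 0.734, 4.89 and 6.2 CPM in wild type (log2 fold change 4.10, SE 1.18, edgeR adjusted p = 0.0265). In each of these genes mutant replicate 1 was the lowest mutant library, and in znf1028 and znf1004 it fell within the wild type range. The chromosome 5 gene znf1005 had 0.693, 7.09 and 8.87 CPM in the mutant and 0.245, 0.326 and 0.775 in wild type, with the same overlap (edgeR adjusted p = 0.026). With mutant replicate 3 left out, only znf346, znf532 and znf1134 were called higher, so the znf1028 and znf1005 calls were lost. The same happened on dropping replicate 2, or replicate 3, of wild type. The chromosome 22 gene znf1144 (ENSDARG00000094563) had 69 counts over the mutant libraries and 1 over the wild type ones, a 37.8-fold ratio (counting interval 6.57 to 1516; edgeR adjusted p = 0.018). The call of znf1134 held in every alternative that gave a value, that of znf1004 was lost without any wild type 256c replicate or mutant replicate 2 or 3 (edgeR adjusted p from 0.0503 to 0.129), and that of znf1144 without any wild type replicate or mutant replicate 3 (0.0567 to 0.127).

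The remaining member called higher, znf653, had 9.02, 7.09 and 9.95 CPM in the mutant at 256c and 0.734, 0.979 and 1.55 CPM in wild type, without overlap. Its log2 fold change was 3.02 (SE 0.93, edgeR adjusted p = 0.0394), and leaving out any 1 of the 6 libraries lost the call (edgeR adjusted p from 0.0559 to 0.159). It lies at chr3:14571813-14606118. At 1024c it had 11.5, 1.38 and 3.34 CPM in the mutant and 0.549, 1.12 and 0.437 CPM in wild type (edgeR adjusted p = 0.0712).

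All 4 members called lower at 256c separated the genotypes, as did 96% of all genes called lower. The gene znf839 (ENSDARG00000076988, chr17:31623356-31639845) had 0.693, 1.14 and 2.71 CPM in the mutant and 10.3, 11.1 and 12 CPM in wild type, a log2 fold change of -2.86 (SE 0.70, edgeR adjusted p = 0.0114). The gene znf385c, a relative of the mammalian RNA binding protein ZNF385A, had 0.231, 0.127 and 0 CPM in the mutant and 1.47, 2.94 and 4.26 CPM in wild type. On 2 mutant and 26 wild type counts it was lower 23.7-fold (counting interval 5.94 to 206; edgeR adjusted p = 0.0139). It stayed low in the mutant at the later stages, and by Sphere it was low in wild type too. At 1024c the mutant had 1 count and wild type 20 (edgeR adjusted p = 0.0785). At Oblong the mutant had 0 counts and wild type 24, at least 9.24-fold lower (edgeR adjusted p = 0.0258). At Sphere the mutant had 2 counts and wild type 8, a 4.24-fold ratio (counting interval 0.847 to 41), and the libraries overlapped. The gene znf1014 had 0.925, 0.506 and 1.63 CPM in the mutant and 3.42, 2.94 and 4.26 CPM in wild type (log2 fold change -1.80, SE 0.55, edgeR adjusted p = 0.0381). Its call was lost in 9 alternative settings, among them without mutant replicate 1 or 2 or any wild type replicate (edgeR adjusted p from 0.0737 to 0.182). That of znf385c was lost in 4, among them without mutant replicate 2 or 3 or wild type replicate 3 (0.0531 to 0.0749), and its Oblong call without any mutant replicate or wild type replicate 3 (0.0931 to 0.145). The call of znf839 was lost without mutant replicate 2 (edgeR adjusted p = 0.0563) and under scaling by library totals (log2 fold change -2.19, edgeR adjusted p = 0.0753).

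**Figure D2:**
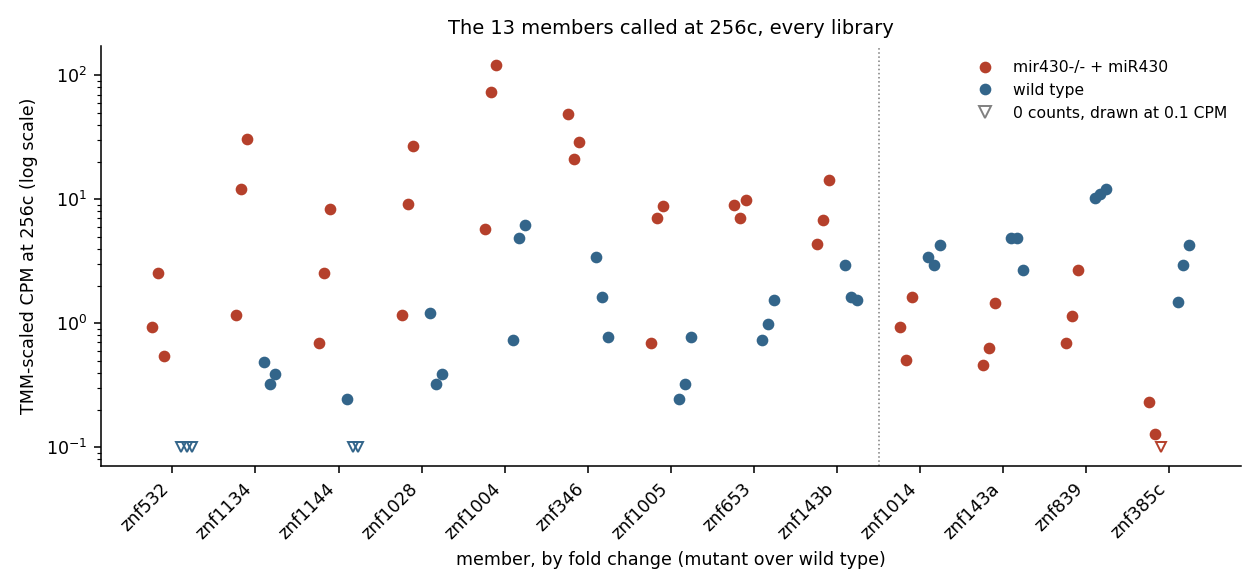
TMM-scaled CPM at 256c (log scale) in every library of the 13 members called between the genotypes, those higher in the mutant left of the dotted line; open triangles are libraries with 0 counts, drawn at 0.1 CPM. All 4 lower members and 6 of the 9 higher ones have libraries that do not overlap; in znf1028, znf1004 and znf1005 mutant replicate 1 falls within the wild type range. Of all genes called higher at 256c, 83.8% do not overlap.

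The count of calls at 256c depended on single libraries and on the scaling. Without mutant 256c replicate 1 it was 14 higher and 2 lower. Over all genes it was then 1151 higher and 301 lower, against 972 and 423 with all libraries. Without mutant replicate 2 or 3, 5 or 3 members were higher, with 777 or 384 among all genes. Without wild type replicate 1, 2 or 3, 4, 3 or 3 members were higher, with 318, 377 or 435 among all genes. With counts scaled to the library total, 21 members were higher and 0 lower, with 1901 and 185 among all genes. That scaling also moved the median of all genes to 0.96, and the members' median to 1.22. Among tissue markers at 256c, the summed levels of the enveloping layer and yolk syncytial layer lists separated the genotypes, and those of the other lists overlapped. The summed level of 12 blastoderm markers was 232 to 2384 CPM in the mutant at 256c and 213 to 450 in wild type. That of 8 enveloping layer markers was 34.2 to 541 CPM in the mutant and 6.2 to 24 in wild type, with 7 of the 8 detected in the mutant and 3 in wild type. The 4 yolk syncytial layer markers summed to 118 to 800 CPM in the mutant and 22.5 to 84.1 in wild type, 8 maternal markers to 41.6 to 98.9 in the mutant and 29.7 to 44 in wild type, and 6 germ plasm markers to 25.3 to 56.9 in the mutant and 19.8 to 50.6 in wild type. Of 7 genes of late differentiated cells, 2 were detected in the mutant, at 0 to 0.905 CPM in sum, and none in wild type, and cpa1 was at 0 throughout. The part of these levels in the calls was not tested. The authors' deposited table marks 6 members as higher at 256c (znf1004, znf1005, znf1028, znf1134, znf1144 and znf346) and 2 lower (znf385c and znf839). That mark is stricter than an adjusted p under 0.05, at which the same table has 13 members higher and 5 lower. It leaves znf532, znf653, znf143b, znf143a and znf1014 unmarked.

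Fewer members were called between the genotypes as development went on, and the same held for all genes. Of all genes, 972 were higher and 423 lower at 256c, and 58 and 104 at Sphere. At 1024c, 3 were higher in the mutant and 1 lower, 1.99% and 0.662% of those tested, against 1.83% and 1.56% of all genes. Beside znf346, znf532 and znf143a this took in znf207a, whose human relative BuGZ helps chromosomes attach to the spindle. It had 17.4, 10.2 and 9.46 CPM in the mutant at 1024c and 0.824, 2.95 and 3.06 CPM in wild type, without overlap, a log2 fold change of 2.45 (SE 0.67, edgeR adjusted p = 0.0402). The znf207a call was lost in 10 of 13 alternative settings, among them leaving out any 1 of the 6 libraries of the stage (edgeR adjusted p from 0.0576 to 0.214). Without wild type 1024c replicate 2, 1 member was higher, with 100 among all genes against 270 with all libraries. Without mutant 1024c replicate 1, 3 members were higher and 0 lower, with 243 and 117 among all genes. Without wild type 1024c replicate 1, 2 members were higher and 0 lower, with 88 and 115 among all genes. Scaled by library totals or by median ratios, 2 members were higher at 1024c and 0 lower. Over all genes 217 were higher and 194 lower by library totals, and 211 and 224 by median ratios.

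At Oblong, znf385c alone was called, lower, with 0 members higher by edgeR at an adjusted p under 0.05. That is 0.662% lower and 0% higher, against 0.923% and 0.774% of all genes. At an unadjusted p under 0.05 edgeR gave 7 higher and 3 lower, 4.64% and 1.99% of the members against 7.85% and 5.74% of all genes. DESeq2 called 1 higher and 2 lower, with 306 and 255 among all genes. Without wild type Oblong replicate 1 edgeR called 0 members higher and 1 lower. Over all genes it then called 29 and 81, against 114 and 136 with all libraries. With the replicate number as a block, since same-numbered libraries deviated together at this stage, edgeR again called 0 higher and 1 lower. At Sphere edgeR and DESeq2 each called 0 members in either direction, against 0.394% of all genes higher and 0.706% lower by edgeR, and at an unadjusted p under 0.05 edgeR gave 1 higher and 2 lower, 0.662% and 1.32% against 3.77% and 6.71% of all genes. The members' median log2 fold change at Sphere was 0.07.

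Between 256c and 1024c, the first step sampled, members were called in wild type. In the mutant edgeR and DESeq2 called 0 members between 1024c and 256c, and edgeR called 0% of all genes in either direction. At an unadjusted p under 0.05, 9 were higher and 2 lower, 5.96% and 1.32% against 5.16% and 0.733% of all genes. In wild type 8 members were higher at 1024c than at 256c and 0 lower, 5.3% against 3.34% of all genes higher and 0.00679% lower. With the replicate number as a block 13 were higher and 0 lower, with 803 and 5 among all genes. The wild type 256c libraries also serve the genotype comparison at 256c, so the calls of these comparisons are not independent. Without wild type 256c replicate 1, 2 or 3 or wild type 1024c replicate 3, edgeR called 0 members in wild type. Over all genes it called 0, 0, 109 and 23 higher in these settings, against 492 with all libraries. The difference between the genotypes in this step was not tested. Tissue markers were also higher in this step in wild type: 5 of 8 enveloping layer markers and 4 of 12 blastoderm markers were called higher and 0 lower. The enveloping layer markers summed to 171 to 917 CPM in wild type at 1024c and 6.2 to 24 CPM at 256c, and the blastoderm markers to 623 to 4554 CPM at 1024c and 213 to 450 CPM at 256c. In the mutant the enveloping layer markers summed to 85.9 to 1071 CPM at 1024c and 34.2 to 541 CPM at 256c, with 0 called. The part of these levels in the members' calls was not tested.

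The largest of these wild type rises were in znf1004 and znf1134. znf1004 had 50.8, 132 and 406 CPM in wild type at 1024c and 0.734, 4.89 and 6.2 CPM at 256c (log2 fold change 5.66, SE 1.26, edgeR adjusted p = 0.0167). In the mutant it had 14.4, 259 and 151 CPM at 1024c and 5.78, 73.5 and 121 CPM at 256c, which overlap (log2 fold change 1.08, SE 1.03). znf1134 had 13.3, 12.3 and 29.1 CPM in wild type at 1024c and 0.489, 0.326 and 0.388 at 256c (log2 fold change 5.44, SE 1.14, edgeR adjusted p = 0.0117). The other 6 were znf654, znf1005, znf1028, znf646, znf1153 (ENSDARG00000071790) and znf770, the last of them named after its values were seen. In all 8 the wild type 1024c libraries lay above all 256c libraries, as in 100% of all genes called higher in this step. The gene znf654 had 9.61, 12.3 and 16.8 CPM in wild type at 1024c and 1.22, 0 and 0 CPM at 256c (log2 fold change 4.74, SE 1.26, edgeR adjusted p = 0.0342).

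From 256c to Sphere most of the members' calls were rises. In the mutant 71 of the 151 tested members were higher at Sphere and 15 lower, 47% and 9.93%, against 26.8% and 22.4% of all genes. In wild type 76 were higher and 13 lower, 50.3% and 8.61%, against 30.7% and 16.2% of all genes. The members' median log2 fold change was 1.68 in the mutant and 2.17 in wild type, and that of all tested genes 0.57 and 0.74. All 71 members higher in the mutant, and 67 of the 76 in wild type, had Sphere libraries above every 256c library, 100% and 88.2%, against 95.4% and 92.8% of all genes called higher. Without wild type Sphere replicate 1, 87 members were higher in wild type and 20 lower, and without wild type Sphere replicate 3, 68 and 3. Over all genes these were 5233 and 3670, and 3512 and 391, against 4523 and 2392 with all libraries. Without mutant 256c replicate 1, 43 members were higher in the mutant and 12 lower, with 2490 and 2561 among all genes. Without mutant 256c replicate 2, 44 members were higher, and without mutant Sphere replicate 2, 43. Over all genes 2310 and 2685 were higher in these settings, against 3942 with all libraries. Without wild type 256c replicate 2, 5 members were lower in wild type, and without wild type 256c replicate 1 or wild type Sphere replicate 2, 8. Over all genes 1502, 1355 and 801 were lower in these settings. Scaled by library totals, 115 members were higher and 1 lower in the mutant and 121 higher and 0 lower in wild type. Over all genes these were 8735 and 90 in the mutant and 9556 and 15 in wild type. The medians of all genes were then 2.85 in the mutant and 3.49 in wild type. So the falls are falls relative to the other genes under TMM scaling. Tissue markers moved over the same interval. Of 8 enveloping layer markers 6 were called higher at Sphere in the mutant and 8 in wild type, with sums of 789 to 1142 CPM at Sphere in the mutant and 376 to 1028 CPM in wild type. All 4 yolk syncytial layer markers were called higher in wild type and 3 in the mutant, and of 12 blastoderm markers 9 in wild type and 2 in the mutant. The 6 germ plasm markers summed to 1.36 to 5.94 CPM at Sphere in the mutant and 0.949 to 19.2 CPM in wild type, with 3 and 2 of the 4 tested called lower. The 8 maternal markers summed to 19.5 to 83.7 CPM at Sphere in the mutant and 26.3 to 45.2 CPM in wild type, with 4 and 2 of the 6 tested called lower and 1 higher in wild type. The 7 genes of late differentiated cells reached 5.9 to 14.9 CPM in the mutant and 5.73 to 10.2 CPM in wild type. The part of these levels in the members' net courses was not tested.

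Of 55 net-course calls of members named by the rule, 30 held in every alternative that gave a value, 15 were lost by leaving out some single library and 4 were lost in 6 or more alternatives. The net courses of the genotypes share no library. Of those called higher, 53 were called in both, 74.6% of the mutant's 71 and 69.7% of wild type's 76. Of those called lower, 11 were called in both, 73.3% of the mutant's 15 and 84.6% of wild type's 13. The overlap over all genes was not counted, so whether the members share more calls than other genes was not tested. Another 40 were called in neither. All falls were among low-numbered members. Of the 69 tested members numbered 900 and above, 44 rose in the mutant and 47 in wild type, and 0 fell in either. Of the 82 with a lower number, 27 rose and 15 fell in the mutant, and 29 rose and 13 fell in wild type. Of all genes, 26.8% rose and 22.4% fell in the mutant, and 30.7% rose and 16.2% fell in wild type. The 70 high-numbered members other than znf1004 held a mean of 0.165% of nuclear counts at 256c in the mutant and 0.138% in wild type. The 99 low-numbered ones held 0.618% and 0.713%. Many high-numbered members were near 0 CPM at 256c, where a fall could hardly be called, so their 0 falls were largely fixed beforehand. On chromosome 22, 33 of 48 rose in the mutant and 32 in wild type, with 1 lower in the mutant. Off chromosomes 3, 4 and 22, 35 of 87 rose and 11 fell in the mutant, and 37 rose and 10 fell in wild type. On chromosome 4, 53 of 167 znf genes rose in the mutant and 148 in wild type.

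**Figure D3:**
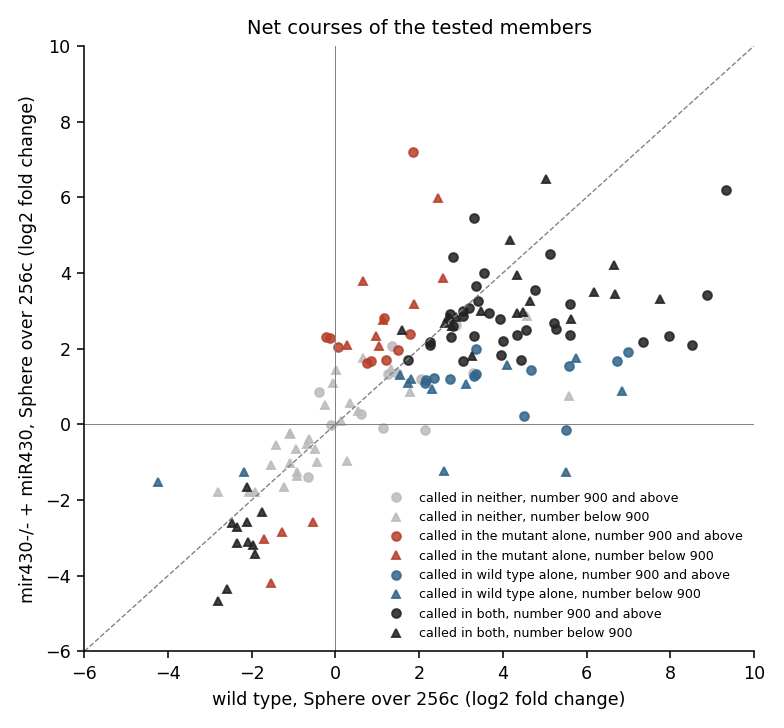
Log2 fold change of Sphere over 256c for the 151 tested members, mutant on the vertical and wild type on the horizontal axis; circles are members numbered 900 and above, triangles lower numbers, colour shows where each was called, and the dashed line marks equal change. The 53 members higher in both genotypes spread over the upper right and the 11 lower in both, all triangles, sit at the lower left.

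Among the transcription factors of development, 6 of 15 tested members rose to Sphere in the mutant, 6 in wild type, and 0 fell. Of all genes, 26.8% were called higher and 22.4% lower in the mutant and 30.7% higher and 16.2% lower in wild type, and the list's median log2 fold change was 1.06 in the mutant and 0.66 in wild type, against 0.57 and 0.74 over all genes. The gene znf281a, whose mouse relative restrains pluripotency genes in embryonic stem cells, had 59.3, 69.4 and 27.8 CPM in the mutant at Sphere and 0.231, 0.38 and 1.09 CPM at 256c. In wild type it had 10.3, 63.1 and 48.9 CPM at Sphere and 0, 1.96 and 1.94 CPM at 256c. The stages did not overlap in either genotype, and the log2 fold change was 6.49 in the mutant (SE 1.08, edgeR adjusted p = 0.00045) and 5.03 in wild type (SE 1.02, 0.000769). The gene znf703, also called nlz1, and znf503, or nlz2, encode repressors that pattern the zebrafish hindbrain, and both rose. On 320 counts at Sphere and 3 at 256c, znf703 was 30-fold higher in the mutant (counting interval 10.2 to 146). Wild type had 109 counts of it at Sphere and 1 at 256c, a 17.8-fold ratio (interval 3.13 to 711). znf503 had 10.3, 11.4 and 9.68 CPM in the mutant at Sphere and 1.16, 3.04 and 4.71 at 256c (edgeR adjusted p = 0.0367), and 12.2, 7.62 and 11.1 CPM in wild type at Sphere and 0.978, 0.326 and 1.94 at 256c (edgeR adjusted p = 0.0032). The znf503 call in the mutant was lost in 6 of 13 alternative settings, among them without mutant 256c replicate 1 or 2 or any mutant Sphere replicate (edgeR adjusted p from 0.0511 to 0.145). The BTB zinc finger gene znf131 rose by a log2 fold change of 2.81 in the mutant (SE 0.72, edgeR adjusted p = 0.00381) and 2.73 in wild type (SE 0.74, 0.00603). Of the remaining calls, znf143a and znf367 were called in the mutant and znf143b and znf281b in wild type. That of znf367 was lost without mutant 256c replicate 1 or 2 or mutant Sphere replicate 2 (edgeR adjusted p from 0.0885 to 0.122), and that of znf281b without wild type 256c replicate 1 or 3 or Sphere replicate 2 (0.0592 to 0.114). The mutant had begun low in znf143a and high in znf143b, as given above.

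Of 9 tested members tied to RNA, splicing and the ribosome, 1 rose and 4 fell in the mutant and 2 rose and 4 fell in wild type, beside 22.4% of all genes lower in the mutant and 16.2% in wild type. Of all genes, 26.8% were higher in the mutant and 30.7% in wild type. The list's median log2 fold change was -1.66 in the mutant and -1.70 in wild type, against 0.57 and 0.74 over all genes. A test of the list against other genes was not made. The gene znf598, whose human relative is a ubiquitin ligase that marks collided ribosomes, had 5.83, 5.29 and 4.01 CPM in the mutant at Sphere and 38.4, 39.6 and 13 CPM at 256c. In wild type it had 4.61, 5.32 and 2.4 CPM at Sphere and 16.1, 28.7 and 8.92 CPM at 256c. No library overlapped between the stages in either genotype, with a log2 fold change of -2.59 in the mutant (SE 0.65, edgeR adjusted p = 0.00327) and -2.12 in wild type (SE 0.64, 0.0111). The gene znf622, whose yeast relative acts in assembly of the large ribosomal subunit, had a log2 fold change of -2.72 in the mutant (SE 0.69, edgeR adjusted p = 0.00344) and -2.36 in wild type (SE 0.68, 0.00808). The gene znf277, whose human relative binds a protein of the small ribosomal subunit, had one of -4.35 in the mutant (SE 0.87, edgeR adjusted p = 0.00109) and -2.60 in wild type (SE 0.81, 0.0133), and a gene on the opposite strand overlaps it. The fourth fall was znf106b in the mutant and znf385c in wild type. The rises were in znf106a in the mutant, and in znf346 and znf593 in wild type. The gene znf593, whose yeast relative helps export the large subunit, had 90 counts in wild type at Sphere and 0 at 256c, at least 4.91-fold higher (edgeR adjusted p = 0.00622). Under scaling by library totals the wild type changes of znf598 and znf622 turned to 0.65 and 0.36, so their direction depends on the scaling. Their mutant calls were lost under it, at -0.47 (edgeR adjusted p = 0.647) and -0.62 (0.532). So were those of znf277, at -0.26 in wild type (edgeR adjusted p = 0.829) and -2.11 in the mutant (0.0553). The mutant call of znf106b and the wild type call of znf385c were lost too, at -0.87 (edgeR adjusted p = 0.409) and -1.64 (0.212). The wild type calls of znf598 and znf622 were also lost without wild type 256c replicate 2 or Sphere replicate 3 (edgeR adjusted p from 0.0734 to 0.0903 for znf598 and 0.0611 to 0.0774 for znf622), and that of znf277 without wild type 256c replicate 3 or Sphere replicate 3 (0.0698 to 0.106).

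The remaining role lists held fewer calls. The median log2 fold change was -0.37 in the mutant and -0.12 in wild type for partners of chromatin regulators. For mitosis and genome upkeep it was 0.65 in the mutant and 0.56 in wild type, and over all genes 0.57 and 0.74. Of all genes, 26.8% were called higher and 22.4% lower in the mutant, and 30.7% higher and 16.2% lower in wild type. Whether these lists differ from other genes was not tested. Of 10 tested partners of chromatin regulators, 1 rose and 1 fell in the mutant and 2 rose and 1 fell in wild type. The fall was znf644a, whose human relative works with the G9a histone methyltransferases. It had 1.85, 1.78 and 0.918 CPM in the mutant at Sphere and 18, 22.3 and 8.87 at 256c (log2 fold change -3.43, SE 0.81, edgeR adjusted p = 0.0024). In wild type it had 11.4, 2.86 and 0.633 CPM at Sphere and 22.3, 14 and 19.4 at 256c (log2 fold change -1.92, SE 0.76, edgeR adjusted p = 0.0417). The wild type call was lost in 10 of 13 alternative settings, among them without any wild type 256c replicate or without Sphere replicate 2 or 3 (edgeR adjusted p from 0.0602 to 0.275), and the value turned to 0.36 when scaled by library totals. Under that scaling the mutant call of znf644a was lost too, at -1.34 (edgeR adjusted p = 0.198). The gene znf410, whose mammalian relative activates CHD4, rose in both genotypes, by a log2 fold change of 2.59 in the mutant (edgeR adjusted p = 0.0238). Wild type had 138 counts of it at Sphere and 3 at 256c, a 7.52-fold ratio (counting interval 2.52 to 36.9; edgeR adjusted p = 0.0275). Its call was lost without mutant 256c replicate 1 or 2 or Sphere replicate 2 in the mutant (edgeR adjusted p from 0.0708 to 0.144), and without wild type 256c replicate 2 or 3 or Sphere replicate 2 in wild type (0.0881 to 0.099). Of 6 tested members tied to mitosis and genome upkeep, 2 rose in each genotype and 0 fell. znf207b rose in both, by a log2 fold change of 2.83 in the mutant (SE 0.72, edgeR adjusted p = 0.00367) and 2.68 in wild type (SE 0.77, 0.00841), with znf280d in the mutant and the nucleolar protein gene znf330 in wild type. The znf330 call was lost in 6 of 13 alternative settings, among them without any wild type 256c replicate or without Sphere replicate 2 or 3 (edgeR adjusted p from 0.0551 to 0.155).

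**Figure D4:**
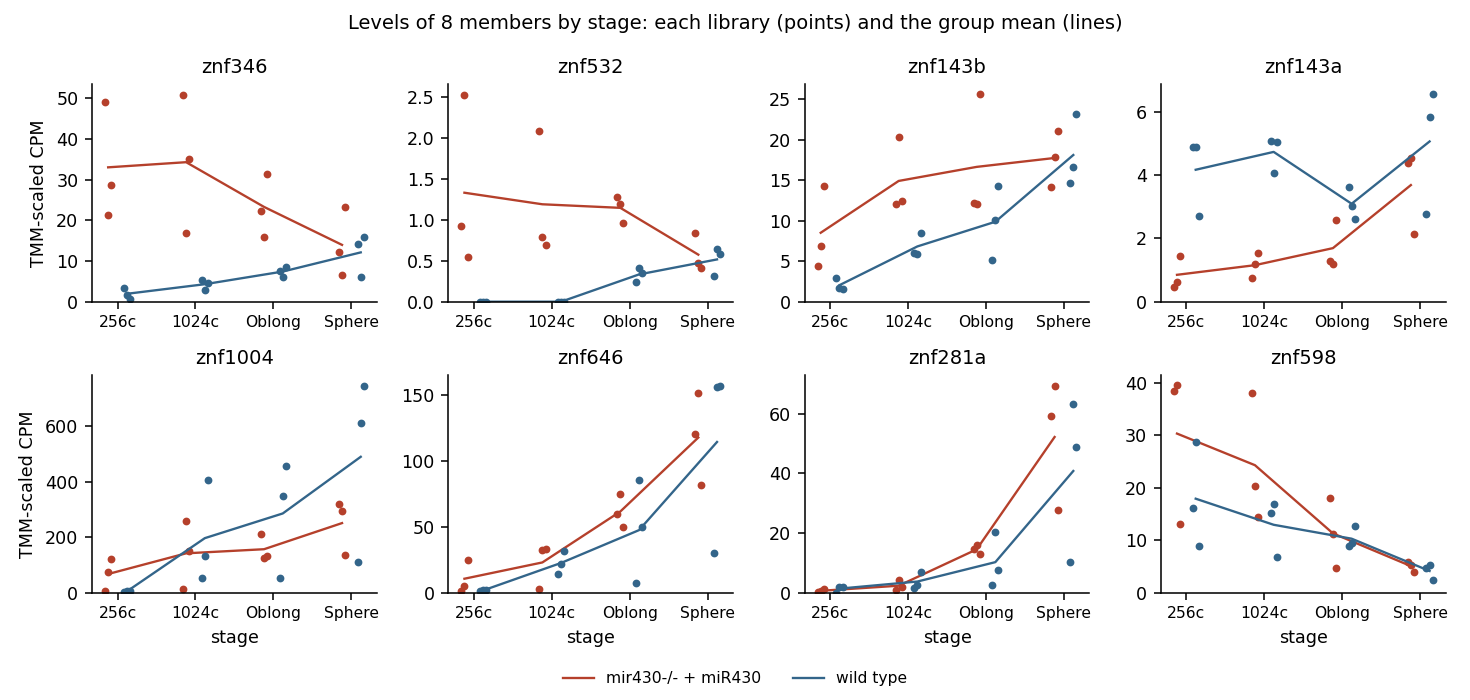
TMM-scaled CPM by stage for 8 members; points are libraries and lines group means, with the mutant drawn left of wild type at each stage and a vertical axis of its own for each gene. znf346 and znf532 are higher in the mutant at the early stages, znf143b and znf143a differ in opposite directions at 256c, znf1004, znf646 and znf281a are highest at Sphere, and znf598 is lowest there.

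Several members, most of them high-numbered, had almost no counts at 256c. The gene znf1001 (ENSDARG00000103777, chr3:7509323-7524363) had 549 counts in the mutant at Sphere and 2 at 256c, a 77.2-fold ratio (counting interval 21.3 to 639). In wild type it had 513 counts at Sphere and 0 at 256c, at least 28-fold higher. On chromosome 22, znf1183 (ENSDARG00000111614) was 48.6-fold higher at Sphere in the mutant (interval 13.4 to 403) and znf1160 24.7-fold (interval 8.37 to 121). In wild type znf1144 (ENSDARG00000094563) had 807 counts at Sphere and 1 at 256c, a 132-fold ratio (interval 23.6 to 5220), and znf1160 261 and 1, a 42.7-fold ratio (interval 7.59 to 1692). Against 0 wild type counts at 256c, znf1008 was at least 20-fold higher at Sphere, znf1164 at least 15.6-fold, znf1124 (ENSDARG00000091025) at least 10.7-fold and the low-numbered znf512 at least 8.94-fold. znf1164 and znf1124 had 19 and 12 counts in the mutant at 256c and 0 in wild type (edgeR adjusted p = 0.0698 and 0.151 between the genotypes).

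The more abundant rising members showed the spread among wild type Sphere libraries. The gene znf646 had 120, 151 and 81.7 CPM in the mutant at Sphere and 1.39, 5.19 and 24.8 CPM at 256c (log2 fold change 3.49, SE 0.98, edgeR adjusted p = 0.00644). In wild type it had 29.6, 156 and 157 CPM at Sphere and 1.22, 1.96 and 1.55 CPM at 256c (log2 fold change 6.18, SE 1.15, edgeR adjusted p = 0.000436). It overlaps znf668 on the opposite strand. znf710a had 53.3, 55.8 and 17.6 CPM in the mutant at Sphere and 0.462, 9.49 and 8.14 at 256c (edgeR adjusted p = 0.0159), and 17.5, 61.1 and 75.2 CPM in wild type at Sphere and 1.22, 0.326 and 1.55 at 256c (edgeR adjusted p = 0.00062). In both genes wild type Sphere replicate 1 was the lowest Sphere library of its genotype and still above all wild type 256c libraries. The chromosome 22 gene znf1153 (ENSDARG00000071790) rose by a log2 fold change of 2.36 in the mutant (SE 0.74, edgeR adjusted p = 0.0118) and 4.33 in wild type (SE 0.85, 0.000609), and znf1159 by 2.17 in the mutant and 2.26 in wild type (edgeR adjusted p = 0.0136 and 0.0189). Without mutant 256c replicate 1 the mutant calls of znf1153 and znf710a were lost (edgeR adjusted p = 0.0581 and 0.065), as was that of znf710a without mutant Sphere replicate 2 (0.0615). The wild type call of znf1159 was lost without wild type 256c replicate 1 or Sphere replicate 2 (0.0655 and 0.0608).

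Other members were called lower at Sphere. The gene znf653, higher in the mutant at 256c, had 0.168, 0.14 and 0.668 CPM in the mutant at Sphere against 9.02, 7.09 and 9.95 at 256c (log2 fold change -4.66, SE 0.92, edgeR adjusted p = 0.00102). In wild type its log2 fold change was -2.81 (SE 1.08, edgeR adjusted p = 0.0359). The gene znf142 had 1.07, 0.983 and 0.918 CPM in the mutant at Sphere and 7.4, 6.71 and 4.16 at 256c, and 2.54, 1.01 and 0.362 CPM in wild type at Sphere and 6.11, 6.53 and 8.92 at 256c. The stages were apart in both genotypes (edgeR adjusted p = 0.00234 in the mutant and 0.00329 in wild type), and plcd4b overlaps it on the opposite strand. The gene znf236 had a log2 fold change of -3.18 in the mutant (SE 0.79, edgeR adjusted p = 0.00306) and -1.97 in wild type (SE 0.75, 0.0361). The gene znf652, whose human relative is a repressor, was at -4.20 in the mutant (SE 1.01, edgeR adjusted p = 0.0027) and -1.53 in wild type (SE 0.98, 0.188). In wild type znf618, whose human relative binds the ubiquitin ligase UHRF2, was at -2.36 (SE 0.92, edgeR adjusted p = 0.0388) and znf576.1 at -2.18 (SE 0.56, 0.00413). The znf618 call was lost in 9 of 13 alternative settings, among them without any wild type 256c replicate or without Sphere replicate 2 or 3 (edgeR adjusted p from 0.0572 to 0.235), and znf576.1 turned to 0.57 when scaled by library totals. Under that scaling the wild type calls of znf142 (-0.02, edgeR adjusted p = 0.988) and znf618 (-0.03, 0.982) were lost. So were the mutant calls of znf236 (-1.08, edgeR adjusted p = 0.295) and znf652 (-1.87, 0.101). The mutant call of znf653 held in all 13 settings.

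Whether the net course differed between the genotypes was tested as an interaction, and edgeR called 0 members in either direction, against 0% of all genes higher and 0.0136% lower. At an unadjusted p under 0.05, 5 were higher and 16 lower, beside 470 and 1541 of all 14732 genes tested. DESeq2 called 1 higher and 4 lower, with 125 and 394 among all genes. By edgeR 0 of the 167 tested znf genes on chromosome 4 were called either, at a median difference of -3.61. The 0 calls therefore do not show that the courses were equal. Several members called in 1 genotype had large but uncertain differences. For znf1134 the mutant's course minus that of wild type was -5.65 on the log2 scale (SE 1.41, edgeR adjusted p = 0.0806), and for znf346 it was -3.82 (SE 0.92, 0.0759). It was -5.07 for znf1004 (SE 1.54, edgeR adjusted p = 0.117) and 3.13 for znf839 (SE 0.92, 0.107). All 4 of these genes were called between the genotypes at 256c. The same 256c libraries enter both tests, so these values are not independent of those calls. Without mutant 256c replicate 1, edgeR called 2 members lower, and without wild type Sphere replicate 1 it called 1, with 189 and 92 among all genes.

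Paralogue pairs let 2 members be compared within a library, where scaling cancels as long as both copies have counts. Each of 11 pairs with an a and a b copy was described by its log2 ratio of counts, with 0.5 added to each. The change in this ratio, Sphere minus 256c, was averaged over the genotypes and tested by an exact permutation of stage labels within each genotype, 400 relabellings in all, two-sided, with 0.005 the smallest p possible. The test was chosen after the values were seen, and it rests on the same libraries as the net courses. The ratio changed in 7 pairs (exact permutation p = 0.005 each, 0.00786 adjusted over the 11 pairs). It turned toward the a copy by 4.39 in znf281, with 5.42 in the mutant and 3.36 in wild type, by 5.74 in znf395 and by 4.48 in znf106. It turned toward the b copy by -5.09 in znf513, by -4.43 in znf644 and by -2.61 in znf207. In znf292 the change was 1.16. Where a copy had 0 counts, its ratio was set by the depth of the library and the 0.5 added. At 256c this held for znf644b in mutant replicate 1 and every wild type library. It also held for znf513b in mutant replicate 1 and wild type replicates 2 and 3, and for znf281a in wild type replicate 1. The sizes of the changes in znf644, znf513 and znf281 are therefore uncertain.

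The pairs differ in which copy moved under TMM scaling. Unlike the ratio, the change of a single copy depends on the scaling. Scaled by library totals, 1 member in all was called lower in the mutant and 0 in wild type. The mutant value of znf106b was then -0.87 (SE 0.89, edgeR adjusted p = 0.409). The falls below are therefore falls relative to other genes. In znf281 the a copy had at most 1.96 CPM in any library at 256c, while the b copy had 28.4, 19.4 and 11.2 CPM in the mutant and 6.11, 8.16 and 6.2 CPM in wild type. At Sphere znf281b had 39, 47.4 and 27 CPM in the mutant and 9.07, 58.3 and 33.4 CPM in wild type. In znf395 the a copy rose (log2 fold change 2.69 in the mutant and 2.62 in wild type, edgeR adjusted p = 0.00141 and 0.00137) while the b copy fell (-3.12 and -2.10, adjusted p = 0.00449 and 0.0393). In znf513 the a copy fell (-2.31 in the mutant and -1.76 in wild type, edgeR adjusted p = 0.00233 and 0.012) and the b copy rose (2.94 and 4.33, adjusted p = 0.00539 and 0.00336). In znf106 the a copy rose and the b copy fell in the mutant (2.06 and -3.04, edgeR adjusted p = 0.00437 and 0.00464), and in wild type the values were 1.03 and -1.70 (adjusted p = 0.104 and 0.0736). capn3b overlaps znf106b on the opposite strand. The pairs znf143, znf687, znf710 and znf609 had adjusted exact permutation p-values of 0.165, 0.055, 0.122 and 0.55. In znf143 the change was 0.84 in the mutant and -2.88 in wild type, and in znf710 it was -0.43 in the mutant and 3.80 in wild type. Whether these changes differ between the genotypes was not tested in pairs.

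**Figure D5:**
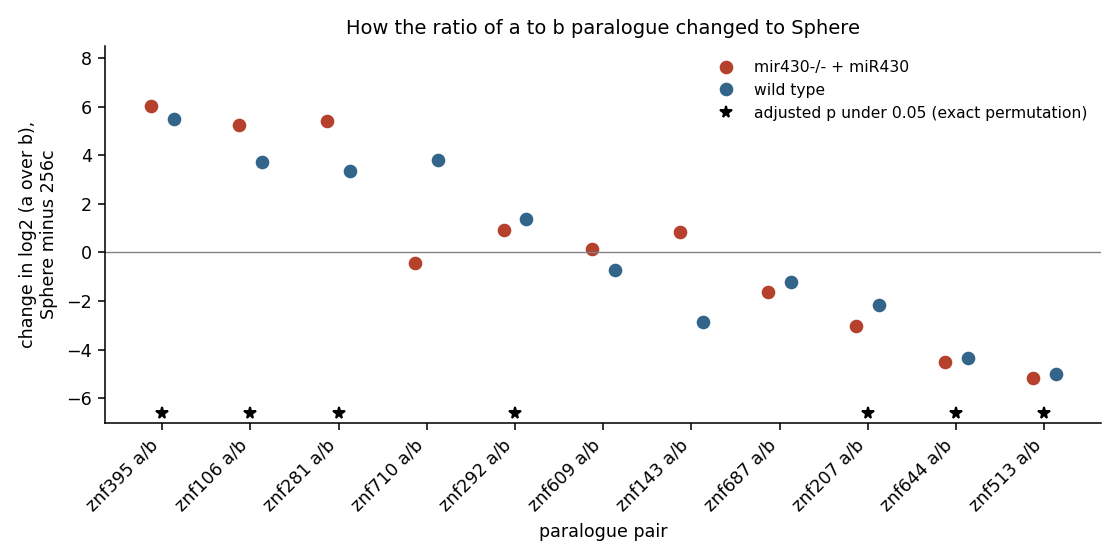
Change in the log2 ratio of a copy to b copy from 256c to Sphere for 11 paralogue pairs, in the mutant and in wild type; stars mark the 7 pairs with an adjusted exact permutation p of 0.00786. In those pairs both genotypes changed the same way, with 6.01 in the mutant and 5.48 in wild type for znf395 and -5.17 in the mutant and -5.00 in wild type for znf513.

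Related genes outside the members gave a comparison. Of 34 tested C2H2 transcription factor genes that are not named znf, such as those of the klf, zic and snai families, 10 were higher in the mutant at 256c and 0 lower, with a median log2 fold change of 2.25, beside 6.6% of all genes higher and 2.87% lower. In the wild type first step 8 were higher and 0 lower, at 1024c, Oblong and Sphere 0 differed between the genotypes, and to Sphere 16 rose and 1 fell in the mutant and 22 rose and 1 fell in wild type. Of 27 heterochromatin and corepressor genes, partners through which many zinc finger proteins act, 4 were higher in the mutant at 256c and 1 lower, and to Sphere 10 rose and 5 fell in the mutant and 9 rose and 1 fell in wild type. 1 was higher in the mutant at 1024c and 1 at Oblong, and 1 rose in the wild type first step. Of all genes, 3.34% rose in the wild type first step, and to Sphere 26.8% rose and 22.4% fell in the mutant and 30.7% rose and 16.2% fell in wild type. Whether the members differ from these lists was not tested.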

How the data were processed

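The authors deposited whole-number counts per gene with symbol, coordinates and exonic length, for 28 libraries, not normalized per the file headers and the values. The headings name them filtered counts without saying what the filter removed. Per the submitters' processing notes the build was GRCz11 and the tools Trimmomatic, HISAT, SAMtools, Picard, featureCounts and DESeq2. The authors' deposited table of comparisons gives log2 fold changes and adjusted p-values, used only where named.

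All 24 IAA libraries entered 1 edgeR model (version 4.0.16, limma 3.58.1, R 4.3.3) with a mean per group, TMM scaling, filterByExpr at its minimum count of 10, the quasi-likelihood test and Benjamini-Hochberg adjustment over 14732 genes; a call is an adjusted p under 0.05. TMM factors ran from 0.233 to 3.56. CPM values use these sizes and RPKM also exonic length. On data simulated for mutant over wild type at 1024c (13400 genes), edgeR called 20 of 100 genes changed 8-fold, 2 of 100 changed 4-fold and 0 of 13200 left unchanged. The changed genes were drawn among those averaging at least 10 counts in the wild type 1024c libraries. Members below that level were not covered. Python 3.11.15 and scipy 1.17.1 gave the exact tests. Members, lists and the naming rule were chosen with earlier results of these data known. The rule named, per comparison, up to 5 called members in each direction with the largest fold, no overlap and at least 2 CPM in the higher group, the 5 highest by RPKM and every called member of a role list. Lists covered roles, other C2H2 genes, heterochromatin genes and tissue markers.

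Where a group had 0 counts, 3 counts in their place set a bound on the fold; ratios resting on 1 to 3 counts carry a 95% exact binomial interval. Such intervals cover counting error only. The bounds take the count of the other group as exact and leave out the spread among replicates, so they are not 95% limits. Replicates differed beyond sampling noise (chi-square per degree of freedom 4.19 to 57.3 over 24 pairs). Same-numbered libraries deviated together, with every correlation above 0.1, between genotypes at Oblong (0.156 to 0.292) and between 1024c and 256c (0.196 to 0.282 in wild type, 0.117 to 0.75 in the mutant), and not between genotypes at 256c (-0.005 to 0.12), 1024c (-0.132 to 0.463) or Sphere (-0.078 to 0.645), nor between Sphere and 256c (-0.125 to 0.09). In the mutant the match by number was incomplete. Replicates 1 and 3 at 1024c correlated most with the same number at 256c (0.75 and 0.529). Replicate 2 at 1024c correlated at 0.464 with 256c replicate 3 and at 0.117 with 256c replicate 2. Alternatives were scaling, filter, tool (DESeq2 1.42.0), libraries fitted, the replicate block and leaving out each library. The 4 wild type libraries without IAA entered no test. Of the member identifiers, 166 were in the table of gene names, 131 under the same symbol. No sequence is shown.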

Additional observations from a re-analysis of the deposited data

Results flagged for a closer look

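The 4 wild type libraries without IAA, 1 per stage, stand outside every comparison above, and the znf genes off chromosome 4 were found in each of them. They took 0.78% of nuclear counts at 256c (812 counts, 95% Wilson interval 0.729 to 0.835), 0.751% at 1024c (1104 counts, 0.708 to 0.797), 0.419% at Oblong (550 counts, 0.385 to 0.455) and 1.03% at Sphere (6593 counts, 1.01 to 1.06). The wild type IAA libraries held 0.858% ± 0.0926, 0.823% ± 0.21, 1.1% ± 0.187 and 1.21% ± 0.208 at these stages (SD, n = 3). In the libraries without IAA, znf1004 was counted 1 and 0 times at the early stages 256c and 1024c, 52 times at Oblong, and 1073 times by Sphere. Their difference from the IAA libraries was not tested. In groups of 3 libraries no single library could be tested as far from the others.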

How the results depend on the processing

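Counts of called members changed with the scaling, the filter on low counts, the tool, the libraries fitted and single libraries. The cause was not tested beyond what each setting changes by construction. Calls over all genes changed with these settings too. At 256c, 972 genes were higher and 423 lower in the main fit. It was 1901 and 185 by library totals, 1415 and 596 with DESeq2, 1690 and 368 with no filter, and 505 and 265 with only the libraries compared. Mutant over wild type at 256c (9 higher, 4 lower) gave 21 higher and 0 lower scaled by library totals, 14 higher with DESeq2, 17 higher and 2 lower with no filter, and 4 higher and 1 lower with only the libraries compared. At 1024c (3 higher, 1 lower) it gave 5 higher with no filter, 0 higher with only the libraries compared, 2 higher with median ratios, and 0 lower under library totals, median ratios, no filter, only the libraries compared and the replicate block. Over all genes 568, 107 and 211 were higher at 1024c in the first 3 of these settings, against 270 in the main fit. In the 5 settings named for lower calls, 194, 224, 315, 126 and 191 genes were lower, against 230. At Oblong (0 higher, 1 lower) DESeq2 gave 1 higher and 2 lower and no filter gave 2 lower. Among all genes at Oblong, DESeq2 gave 306 higher and 255 lower and no filter gave 259 lower, against 114 and 136 in the main fit. The wild type first step (8 higher) gave 24 scaled by library totals, 15 with TMM over nuclear genes, 18 with DESeq2, 21 with no filter, 14 with only the libraries compared and 13 with the replicate block. In the same order these settings gave 1586, 915, 1150, 1410, 879 and 803 higher over all genes, against 492 in the main fit. Sphere over 256c in the mutant (71 higher, 15 lower) gave 115 higher and 1 lower by library totals. In wild type (76 higher, 13 lower) it gave 121 higher and 0 lower by library totals, and 8 lower with TMM over nuclear genes and with median ratios, 6 with no filter and 7 with only the libraries compared. Over all genes, library totals gave 8735 higher and 90 lower in the mutant, against 3942 and 3305, and 9556 higher in wild type, against 4523. In the order of settings given, 15, 1679, 1535, 1232 and 917 of all genes were lower in wild type, against 2392. The difference of the net courses (0 higher, 0 lower) gave 1 higher and 4 lower with DESeq2, 6 lower by library totals and with no filter, and 1 lower with the replicate block. The block changed no other count by over 1.5 times. For this difference 394 of all genes were lower with DESeq2, 443 by library totals, 646 with no filter and 87 with the block, against 2. Leaving out 1 library at a time gave 3 to 14 higher and 0 to 3 lower at 256c, 1 to 3 higher and 0 to 1 lower at 1024c, 0 higher and 0 to 1 lower at Oblong, 0 at Sphere, 0 in the mutant first step, 0 to 8 higher and 0 lower in the wild type first step, 43 to 71 higher and 11 to 18 lower in the mutant net course, 55 to 87 higher and 3 to 20 lower in the wild type one, and 0 higher and 0 to 2 lower for their difference. Scaling by library totals turned the wild type net course of znf644a to 0.36, znf622 to 0.36, znf576.1 to 0.57 and znf598 to 0.65, and leaving out wild type 256c replicate 3 turned the znf609 pair to 0.01 (-0.55 without wild type 256c replicate 1). The median of all genes at 256c, 0.24 under TMM, was 0.96 by library totals, 0.37 with TMM over nuclear genes and 0.30 with median ratios. The paralogue pair alternatives, another pseudocount and leaving out libraries, were chosen after seeing the data. Depth limited 256c most: 1 count in a wild type library there was worth 0.245 to 0.388 CPM.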
